A study of Mus musculus with 6 samples.

Results

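The autophagy and lysosome genes described here are 32 genes of a deposited mouse expression table, taken from its 34745 rows by gene name, and all 32 were found and counted highly enough to be tested. They comprise 13 genes of autophagosome formation and cargo capture, 17 genes of the lysosome (hydrolases with their cofactors, and membrane proteins) and the transcription factor genes Tfeb and Tfe3. RNA was sequenced from spermatogonial stem cells, the germline stem cells of the testis, grown in culture from DBA/2J and c57BL/6J cross mice at postnatal day 6 and kept to passages 15 to 20. The 3 untreated and the 3 treated libraries shared this origin, and the treated cultures received 100 µM bisphenol A (BPA), a plastics monomer, for about 4 days. No vehicle is named for the untreated cultures, and nothing in the labels says whether replicates were separate cultures or animals, so p-values measure the spread between these libraries, which may be technical.

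Autophagy encloses cytoplasm in a double membrane, the autophagosome, which then fuses with a lysosome. The ULK1 and Beclin 1 complexes start the membrane, the ATG5, ATG12 and ATG16L1 conjugation system attaches ATG8 proteins (LC3 and GABARAP) to it, and receptors such as p62 tether cargo. Lysosomes are acidified by a vacuolar proton pump (V-ATPase) and degrade the contents with cathepsins and glycosidases, many of whose genes are known targets of TFEB and TFE3.

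Library totals were 13453280 to 22286517 counts, and 3 counts, the limit that a count of 0 allows, corresponded to 0.135 to 0.223 CPM, the counts scaled to a common library total. The ATF4 gene Atf4 separated the groups, at 46.1 to 61.1 CPM in untreated and 750 to 809 CPM in BPA libraries. Spermatogonial markers summed to 1783 to 1818 CPM in untreated and 1537 to 2033 CPM in BPA libraries, with all 10 markers tested. Of these Sall4 rose (50.6 ± 8.31 to 89.5 ± 23 CPM, SD, n = 3), and Uchl1 (684 ± 27.4 to 387 ± 60.6 CPM) and Id4 (26.4 ± 3.59 to 13.1 ± 0.978 CPM) fell. Of fibroblast feeder markers 8 of 10 could be tested (96.7 to 135 against 65.7 to 102 CPM summed, Lum and Postn at or near 0). Of Sertoli markers 4 of 8 could be tested (14 to 17.2 against 29.7 to 49.8 CPM summed), Rhox5 had 0 counts in every library, and Sox9 rose. Macrophage markers summed to 61.2 to 64.0 and 32.5 to 46.7 CPM. Most of that was Cd68, itself a lysosomal membrane protein, while Tyrobp and Cx3cr1 had 0 counts in every library. Lyz2 was detected throughout, at 6.57, 7.53 and 6.17 CPM in untreated and 0.655, 0.198 and 3.51 CPM in BPA libraries. Cd14 was detected in every library too, at 2.04 to 5.81 CPM. In such bulk samples fewer cells of a type and less RNA per cell cannot be told apart, and the part of these markers in the results below was not tested.

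Under BPA 3 of the 32 members passed the test: Lamp1 and Ctsl rose, and Tfeb fell. Of all 13287 tested genes 10.6% passed, 4.37% as higher and 6.28% as lower, so the share of members (9.38%) was near the background. Values are CPM after TMM scaling of the library totals. Each log2 fold change gives BPA relative to untreated, with its standard error (SE), and the adjusted p is that of edgeR's quasi-likelihood test with Benjamini-Hochberg adjustment over all tested genes, called at 0.05. The autophagosome members had a median log2 fold change of -0.12 and 4 of 13 lay above 0. The lysosomal members had a median of 0.35 and 15 of 17 lay above 0, or 11 of 17 without BPA replicate 2. Over all tested genes the median was 0.10 and 55.4% lay above 0. No test of a difference between these lists was made.

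The groups did not overlap for 7 members with BPA above and 5 with BPA below. Among all tested genes the shares were 15.6% and 15.7%, or 31.3% in either direction. The members were measured more tightly than most genes, with a median SE of 0.19 against 0.37 over all tested genes. For 24 of the 32 the 95% interval of the log2 fold change lay between -1 and 1, so that a change of 2-fold was outside it, as for 31.2% of all tested genes.

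**Figure D1:**
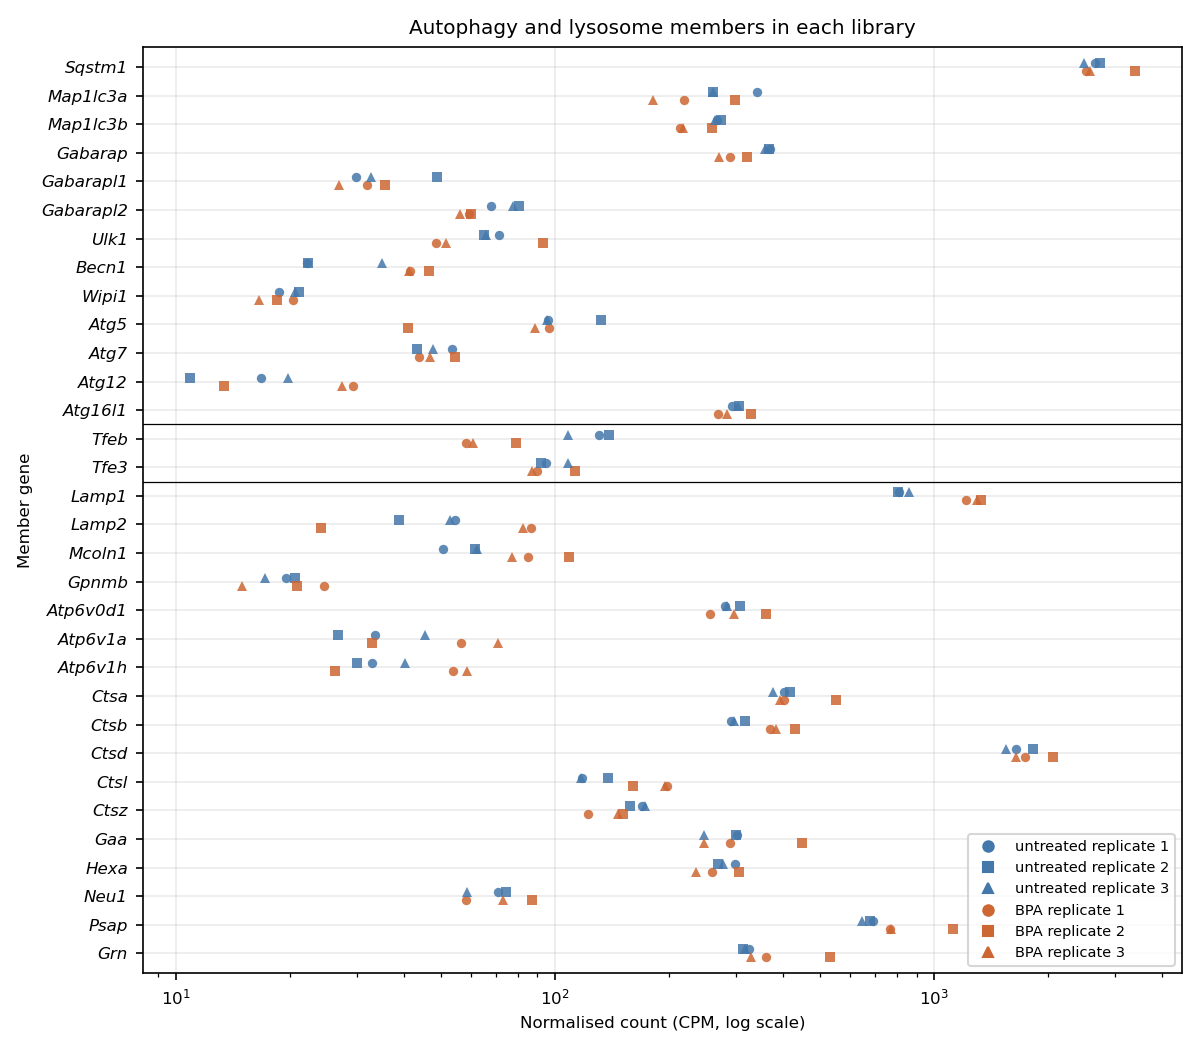
Normalised counts (CPM, log scale) of the 32 members, 1 symbol per library, untreated in blue and BPA in orange, with lines between the autophagosome, regulator and lysosomal members. Lamp1 lies at 803 to 858 CPM in untreated and 1214 to 1332 CPM in BPA libraries, while Lamp2, Atg5 and Atp6v1h have their lowest value in BPA replicate 2.

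The members spanned a wide range of abundance. By the authors' FPKM, which divide counts by gene length, untreated cultures had most Ctsd (416 ± 27.4, SD, n = 3), Sqstm1 (360 ± 8.62) and Lamp1 (352 ± 22.2), each above at least 99.0% of the tested genes. Ctsd stood above Sqstm1 and Lamp1 by more than their spread, and Sqstm1 and Lamp1 did not differ beyond theirs. Psap followed at 162 ± 2.32 and Hexa at 146 ± 7.95, and these neighbours did stand apart. Atp6v0d1 was at 132 ± 5.77, and Ctsz (112 ± 7.64), Map1lc3a (110 ± 16.7) and Gabarap (106 ± 1.21) lay within their spread of one another. The lowest levels were those of Atp6v1h (2.87 ± 0.508), Gpnmb (2.46 ± 0.167) and Becn1 (2.03 ± 0.619), which lay within their spread of their neighbours. The gene lengths behind the FPKM were 0.304 to 2.23 times the merged exon length in GENCODE M21, so the order is approximate. With merged exon lengths Sqstm1 ranked above Ctsd, and Ctsl moved from rank 11 to 19. Atg12 then moved from rank 24 to 32, the lowest, and Becn1 from 32 to 29. Map1lc3a came level with Psap, at 244 CPM per kilobase each. The SDs between libraries do not cover this uncertainty of length.

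Sqstm1 encodes p62, the receptor that links ubiquitinated cargo to ATG8 proteins. It was at 2649, 2733 and 2487 CPM in untreated replicates 1 to 3 and at 2517, 3381 and 2578 CPM in BPA replicates 1 to 3. The groups overlapped, since only BPA replicate 2 stood above all untreated libraries. The log2 fold change was 0.11 (SE 0.13, 95% interval -0.18 to 0.40, edgeR adjusted p = 0.67), and -0.04 without BPA replicate 2.

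None of the 5 ATG8 family genes passed the test, and all 5 had a log2 fold change below 0, with a median of -0.30. Together they summed to 993 to 1077 CPM in untreated and 755 to 974 CPM in BPA libraries. Gabarap was at 370, 367 and 358 CPM in untreated and 289, 321 and 271 CPM in BPA libraries. Every BPA library was below every untreated one (-0.31, SE 0.14, edgeR adjusted p = 0.173). Map1lc3b, the LC3B gene, was at 267, 274 and 264 CPM against 214, 259 and 218 CPM, again without overlap (-0.22, SE 0.14, edgeR adjusted p = 0.378). Gabarapl2 was at 67.7, 80.6 and 77.6 against 59.5, 60.1 and 56.3 CPM, the third ATG8 gene whose groups did not overlap (-0.36, SE 0.18, edgeR adjusted p = 0.244). Map1lc3a was at 342, 261 and 261 against 219, 298 and 182 CPM. Its groups overlapped through BPA replicate 2, and the fold change was -0.30 (SE 0.19). Gabarapl1, the rarest of the family at 27.0 to 48.8 CPM, was at -0.24 (SE 0.26), and 28.3% of its exon bases overlap 1700101I11Rik, which had 0 counts in every library. Without BPA replicate 2 the edgeR test called Map1lc3a (-0.52), Map1lc3b (-0.31) and Gabarap (-0.38) lower (adjusted p = 0.023, 0.0488 and 0.0163). In that comparison 20.5% of all tested genes were called.

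The initiation genes did not pass the test. Ulk1, the kinase that starts autophagosome formation, was at 71.1, 65.0 and 66.0 CPM in untreated and 48.6, 93.0 and 51.7 CPM in BPA libraries. BPA replicate 2 was above and the other BPA replicates below all untreated libraries (-0.06, SE 0.25). Becn1, encoding Beclin 1 of the lipid kinase complex, was at 22.2, 22.4 and 35.1 against 41.4, 46.6 and 41.3 CPM. Its groups did not overlap, and the fold change of 0.70 (SE 0.26) missed the threshold (edgeR adjusted p = 0.109). The Becn1 value is uncertain, because 43.9% of its exon bases overlap Cntd1 on the other strand and the library kit does not mark strand. Cntd1 itself was given 0 to 29 counts per library. Wipi1, which binds the phosphoinositide of the forming membrane, was at -0.12 (SE 0.28).

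The conjugation genes did not pass either. Atg5 was at 96.1, 132 and 95.6 CPM in untreated and 96.4, 40.9 and 88.7 CPM in BPA libraries. BPA replicate 2 was lowest by a wide margin (-0.52, SE 0.28, edgeR adjusted p = 0.282). Atg12, whose product is joined to ATG5, was at 16.8, 10.9 and 19.8 against 29.3, 13.4 and 27.5 CPM (0.56, SE 0.36). Here too BPA replicate 2 lay apart, inside the untreated range. Atg7, the activating enzyme, was at 0.01 (SE 0.21, 95% interval -0.45 to 0.47), and Atg16l1 was at -0.03 (SE 0.14, -0.34 to 0.27). In all, 0 of 13 autophagosome members passed edgeR, DESeq2 or limma-voom, while 2 had an unadjusted edgeR p under 0.05, 1 in each direction, against 3362 of all 13287 tested genes.

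Tfeb, the gene of a transcription factor of lysosomal genes (ENSMUSG00000023990, mm10 chromosome 17, 47737030 to 47792419), was lower under BPA. It was at 131, 139 and 108 CPM in untreated and 58.4, 78.9 and 61.0 CPM in BPA libraries. The groups did not overlap, and the level was 1.91-fold lower (log2 fold change -0.93, SE 0.19, edgeR adjusted p = 0.01). When untreated replicate 1 or 2 was left out the edgeR adjusted p was 0.0715 or 0.0686, and when BPA replicate 1 was left out it was 0.0583. Its paralog Tfe3 was at 94.9, 91.9 and 108 against 89.9, 113 and 86.9 CPM. These groups overlapped (-0.02, SE 0.18, 95% interval -0.41 to 0.37). The related genes Mitf and Tfec had too few counts to be tested.

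Lamp1 encodes a heavily glycosylated protein of the lysosomal membrane (ENSMUSG00000031447, mm10 chromosome 8, 13159135 to 13175338) and gave the smallest adjusted p of all members. It was at 808, 803 and 858 CPM in untreated and 1214, 1332 and 1301 CPM in BPA libraries. The BPA libraries lay well above the untreated ones and close to one another, also in BPA replicate 2. Lamp1 was 1.56-fold higher (0.64, SE 0.12, edgeR adjusted p = 0.00581). Of its exon bases 9.31% overlap Grtp1 on the other strand, which had 341 to 781 counts per library. Leaving out untreated replicate 1 or 2 ended the call (0.63 each, edgeR adjusted p = 0.061 and 0.0583).

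Lamp2, which encodes the second major membrane glycoprotein and a form that takes up proteins directly, was at 54.7, 38.8 and 52.8 CPM in untreated and 86.4, 24.2 and 82.6 CPM in BPA libraries. BPA replicates 1 and 3 were above and replicate 2 below every untreated library (0.40, SE 0.38, edgeR adjusted p = 0.556). Without BPA replicate 2 it was at 0.79 and passed (edgeR adjusted p = 0.0105), and after correcting for transcript GC and length it was at -0.14. Mcoln1, the lysosomal calcium channel TRPML1, was at 50.6, 61.6 and 62.3 against 84.9, 109 and 77.2 CPM. Its groups did not overlap, and it missed the threshold (0.64, SE 0.20, edgeR adjusted p = 0.0625). It passed with upper quartile or library size scaling, with no low-count filter and in DESeq2 (adjusted p = 0.0279). Gpnmb, a membrane glycoprotein of lysosomes and melanosomes, was low in all libraries at 15.0 to 24.6 CPM (0.07, SE 0.30).

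The 3 proton pump genes did not pass the test. Atp6v1a, the catalytic subunit, was at 33.6, 26.8 and 45.4 CPM in untreated and 56.5, 33 and 71.0 CPM in BPA libraries (0.60, SE 0.30). Atp6v1h, a regulatory subunit, was at 33, 30.1 and 40.2 against 53.9, 26.4 and 58.8 CPM (0.43, SE 0.30). In both genes BPA replicates 1 and 3 exceeded all untreated libraries and replicate 2 did not. Without it both passed (0.86 and 0.71, edgeR adjusted p = 0.024 and 0.0294). When corrected for GC and length Atp6v1a was at 0.19 (edgeR adjusted p = 0.604) and Atp6v1h at -0.02. The membrane sector subunit Atp6v0d1, far more abundant at 257 to 361 CPM, was at 0.06 (SE 0.16, 95% interval -0.28 to 0.40).

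Among the cathepsins Ctsl rose and the other 4 did not pass. Ctsl encodes the cysteine protease cathepsin L (ENSMUSG00000021477, mm10 chromosome 13, 64363214 to 64370306). It was at 118, 138 and 117 CPM in untreated and 198, 161 and 195 CPM in BPA libraries, without overlap and with BPA replicate 2 the lowest of its group. It was 1.48-fold higher (0.57, SE 0.16, edgeR adjusted p = 0.0427). The call ended under the correction for GC and length (0.38, edgeR adjusted p = 0.113). It also ended when any single library except BPA replicate 2 was left out (0.52 to 0.65, edgeR adjusted p at most 0.179). Ctsb, cathepsin B, was at 291, 317 and 296 against 370, 431 and 383 CPM. Its groups did not overlap, and it missed the threshold (0.39, SE 0.14, edgeR adjusted p = 0.0937). It passed when scaled by library size alone, where 6.25% of all tested genes were called higher and 5.92% lower, and without BPA replicate 2 (edgeR adjusted p = 0.00997 and 0.0354). Of the Ctsb exon bases 12.8% overlap Fdft1 on the other strand. Fdft1 had 6318, 4462 and 4990 counts in untreated and 2419, 4174 and 4325 in BPA libraries. The part of these shared bases in the Ctsb value was not tested. Ctsl shares 26.8% of its exon bases with an antisense gene (ENSMUSG00000113683) that has no row in the table, and without strand the reads of both cannot be told apart, so the Ctsl value is uncertain.

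Ctsd, the aspartic protease cathepsin D, was at 1643, 1827 and 1547 CPM in untreated and 1735, 2057 and 1648 CPM in BPA libraries. The groups overlapped (0.12, SE 0.13, 95% interval -0.16 to 0.40). Of the Ctsd exon bases 34.4% are shared with ENSMUSG00000110040, a gene on the same strand that has no row in the table. Ctsa, a carboxypeptidase that also stabilises neuraminidase, was at 0.17 (SE 0.16), with 403, 552 and 392 CPM in the BPA and 375 to 417 CPM in the untreated libraries. Ctsz was the only one of the 5 member cathepsins below 0, at 170, 158 and 173 against 122, 151 and 147 CPM. Its groups did not overlap (-0.26, SE 0.16, edgeR adjusted p = 0.342), and the corrected value for GC and length was 0.03.

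The 3 glycosidase genes overlapped between groups and did not pass. Gaa, which degrades glycogen, was at 302, 301 and 247 CPM in untreated and 289, 448 and 247 CPM in BPA libraries (0.21, SE 0.21). Only BPA replicate 2 was raised, and without it the value was -0.08. Hexa, which acts on gangliosides, was at -0.08 (SE 0.15), and Neu1, the neuraminidase, at 0.10 (SE 0.21). The cofactor genes lay above the untreated range in every BPA library but did not pass. Psap, the precursor of the saposins, was at 689, 676 and 644 against 764, 1119 and 770 CPM (0.40, SE 0.16, edgeR adjusted p = 0.138). Grn, encoding progranulin, was at 325, 313 and 318 against 361, 530 and 328 CPM (0.35, SE 0.18, edgeR adjusted p = 0.247). In both the separation from the untreated libraries was small in BPA replicates 1 and 3. After the GC and length correction both passed (0.47 and 0.37, edgeR adjusted p = 0.00447 and 0.0279).

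**Figure D2:**
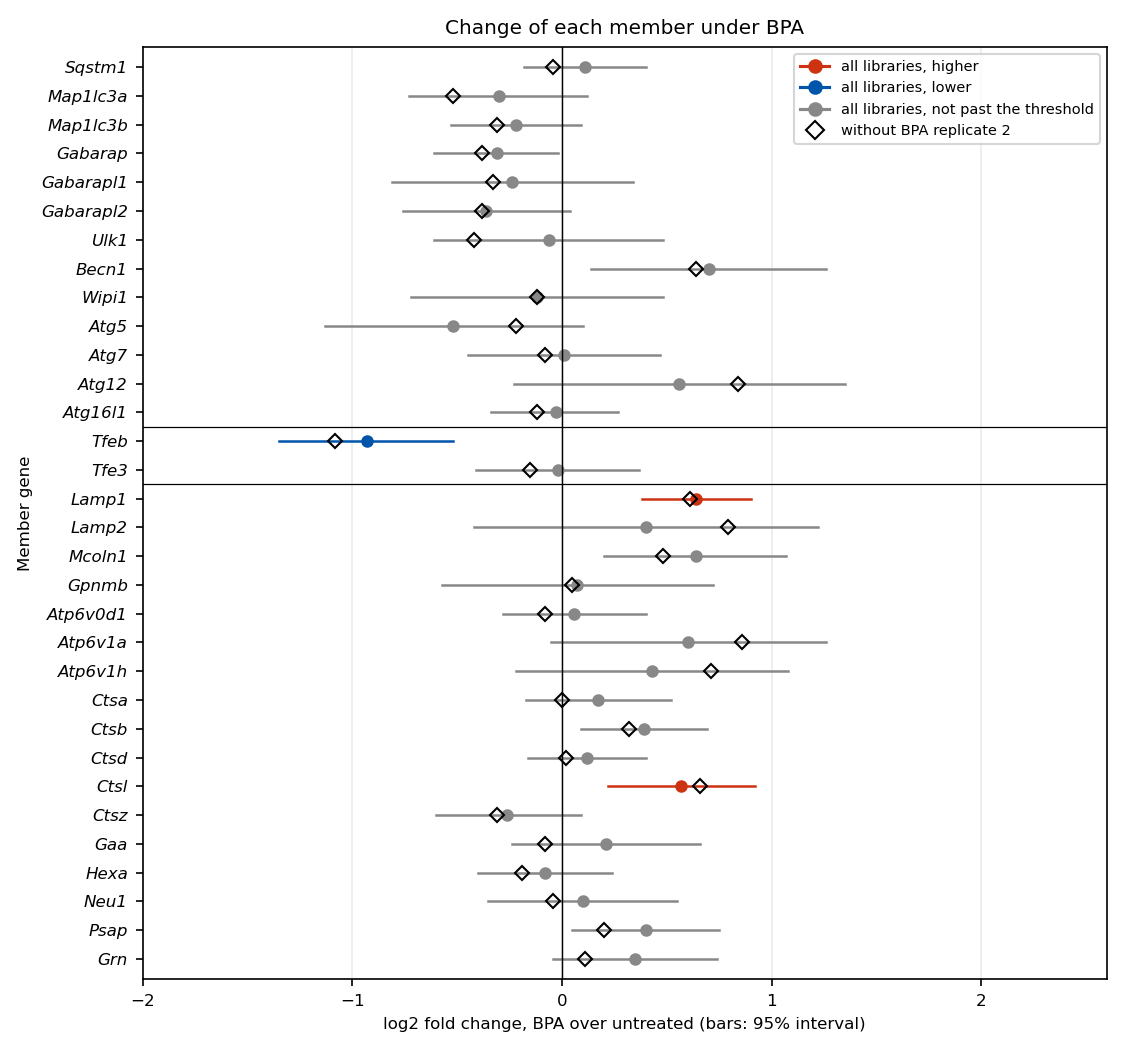
Log2 fold change of each member, BPA over untreated, as filled circles with 95% intervals (red higher, blue lower, grey not past the threshold) and, as open diamonds, without BPA replicate 2. Most intervals cross 0, Tfeb lies at -0.93 and Lamp1 at 0.64, and the diamonds of Lamp2 (0.79) and Atp6v1a (0.86) lie to the right of their circles.

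In many of these genes BPA replicate 2 lay apart from the other BPA libraries. The calls depended on other libraries too, since 0 members passed in either direction without untreated replicate 1 or 2. BPA replicate 2 differed from the mean of BPA replicates 1 and 3 by -1.80 (Lamp2) to 0.89 (Ulk1) on the log2 scale. The difference varied with the GC content of the transcripts. Across the 32 members it had a Pearson r of 0.80 and a Spearman rho of 0.83 with GC, and across 8705 tested genes with at least 50 counts in every library r was 0.70. Each other library, set against the mean of the other libraries of its group, had a Pearson r with GC of -0.71 (BPA replicate 1), -0.73 (BPA replicate 3), 0.35, 0.31 and -0.59 (untreated replicates 1 to 3) across the members. The values of BPA replicates 1 and 3 include BPA replicate 2 in the mean they are set against. They therefore do not show whether those libraries had a relation to GC of their own. Among the untreated libraries, whose means are free of BPA replicate 2, the largest r in size was -0.59. The deviations of BPA replicate 2 had an SD of 0.62. This SD was 0.33 and 0.36 in BPA replicates 1 and 3 and 0.17 to 0.27 in the untreated libraries. These are descriptions over genes that share the same libraries, and genes are not independent replicates. Members with the lowest GC, Atp6v1h (37.6%) and Lamp2 (38.7%), were at -1.09 and -1.80. Those with the highest, Tfeb (63.2%) and Map1lc3a (63.1%), were at 0.40 and 0.58. The largest positive values were those of Ulk1 (58.0%) and Gaa (59.5%), at 0.89 and 0.75. Members of similar GC could differ, with Atg5 (44.6%) at -1.18 and Atg16l1 (45.3%) at 0.25.

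Without BPA replicate 2 the test called 6 members higher and 4 lower, where 8.81% and 11.7% of all tested genes were called. The higher ones were Lamp1, Lamp2, Atp6v1a, Atp6v1h, Ctsb and Ctsl, all lysosomal. The lower ones were Tfeb, Map1lc3a, Map1lc3b and Gabarap. The members' log2 fold change itself then had r = -0.70 with GC content, against -0.45 with all libraries. It was 0.00 after the GC and length correction, a value largely built in. That correction removes each library's trend with GC, whatever its source, a treatment effect included. With that correction Lamp1, Psap and Grn were called higher and Map1lc3b, Gabarap, Atg5 and Tfeb lower, against 5.84% and 10.3% of all tested genes (16.1% in all). Lamp1 and Tfeb were called in all 3 comparisons. The median of the autophagosome members was -0.22 without BPA replicate 2 and -0.17 after the correction, and that of the lysosomal members 0.11 and 0.19. In the same order, 2 and 3 of the 13 autophagosome members and 11 and 14 of the 17 lysosomal members lay above 0. Median GC content was 51.5% in the autophagosome and 53.2% in the lysosomal members.

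**Figure D3:**
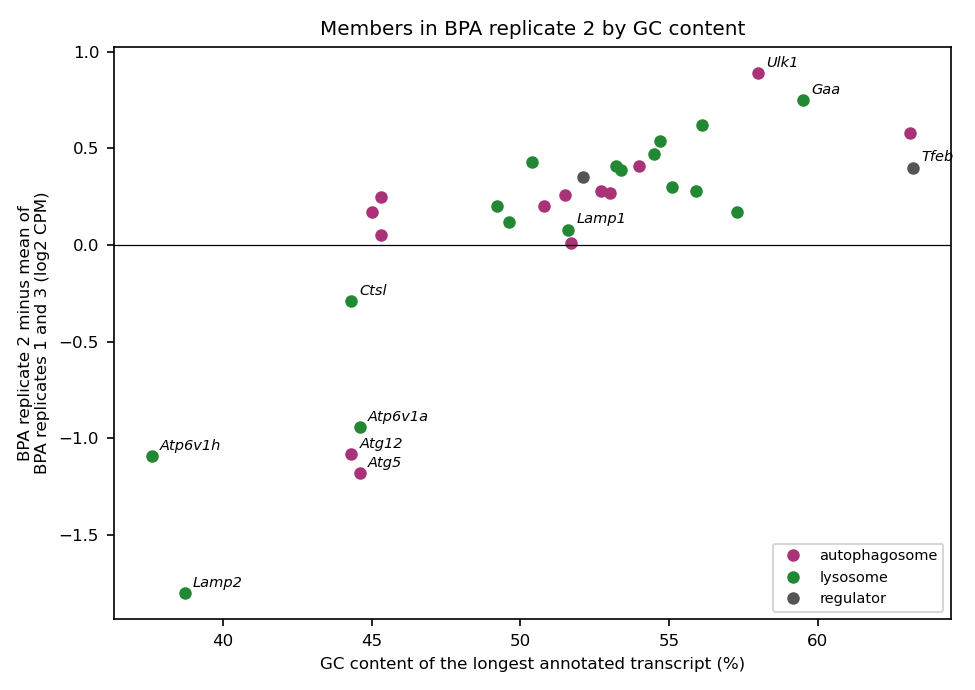
Difference of BPA replicate 2 from the mean of BPA replicates 1 and 3 (log2 CPM) against the GC content of each member's longest annotated transcript, 1 point per gene. Points rise from Lamp2 at -1.80 to Ulk1 at 0.89, and Lamp1, at 0.08, lies near 0.

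Promoter sequences are shown because many lysosomal genes are known to carry the E-box CACGTG, which TFEB and TFE3 bind best inside the palindrome TCACGTGA. Of the members 26 were matched in RefSeq promoter windows of 300 bases (GRCm38.p6, 250 before to 50 after the start). On either strand CACGTG was found in 8 of 15 lysosomal and 2 of 9 autophagosome members, against 8.09% of all 27025 genes. The palindrome, each copy of which contains a CACGTG, was found in 5 lysosomal members (Atp6v0d1, Atp6v1a, Ctsa, Ctsd and Mcoln1), in 0 autophagosome members and in 1.12% of all genes. A match of letters is a description and not a binding site. RefSeq starts can also differ from the deposited gene locations. The Atg7 window (chr6:114670846-114671145) lies inside the gene, located at 114643097 to 114860614. The windows of Atp6v1a and Ctsa that held CACGTG likewise lie inside their located genes. The 250 bases before the start are given 5′ to 3′ on the gene's strand for both members that rose and for Mcoln1 and Ctsd, with every CACGTG in capitals.
Lamp1, chr8:13158911-13159160, plus strand: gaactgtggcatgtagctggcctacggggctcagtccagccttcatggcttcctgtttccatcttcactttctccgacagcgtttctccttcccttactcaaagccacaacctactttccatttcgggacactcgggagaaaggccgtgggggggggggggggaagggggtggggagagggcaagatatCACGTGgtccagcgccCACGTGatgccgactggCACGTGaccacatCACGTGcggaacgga
Ctsl, chr13:64370521-64370770, minus strand: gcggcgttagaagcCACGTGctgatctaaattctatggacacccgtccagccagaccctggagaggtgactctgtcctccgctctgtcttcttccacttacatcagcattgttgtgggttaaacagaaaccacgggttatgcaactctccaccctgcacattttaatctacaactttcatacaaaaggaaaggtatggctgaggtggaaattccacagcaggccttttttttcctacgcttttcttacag
Mcoln1, chr8:3500269-3500518, plus strand: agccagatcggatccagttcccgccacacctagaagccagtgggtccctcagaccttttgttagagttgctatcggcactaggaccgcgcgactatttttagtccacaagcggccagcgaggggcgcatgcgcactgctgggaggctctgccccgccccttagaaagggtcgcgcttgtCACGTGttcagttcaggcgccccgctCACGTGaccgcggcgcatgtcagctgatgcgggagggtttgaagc
Ctsd, chr7:142387828-142388077, minus strand: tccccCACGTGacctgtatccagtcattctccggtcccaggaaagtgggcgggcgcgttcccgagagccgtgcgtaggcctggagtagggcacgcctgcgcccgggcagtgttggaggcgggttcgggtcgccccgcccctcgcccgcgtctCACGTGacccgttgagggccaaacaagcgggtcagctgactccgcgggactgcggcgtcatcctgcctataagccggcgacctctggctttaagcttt

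The Lamp1 window held 4 copies of CACGTG within 61 bases of the start and none in the palindrome. Ctsl held 1 copy, 236 bases upstream of the RefSeq start, which itself lies upstream of the Ctsl gene as located above. Mcoln1 and Ctsd each held 2 copies, 1 of them in the palindrome. The 5 members with the palindrome had log2 fold changes of 0.64 (Mcoln1), 0.60 (Atp6v1a), 0.17 (Ctsa), 0.12 (Ctsd) and 0.06 (Atp6v0d1), and none of the 5 passed the test. The element TGATGNAA, the core of a site bound by ATF4 and its partners, was found in 2 members, Ctsl and Atp6v0d1, and in 4.51% of all genes.

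Other genes of the pathway were taken from lists of their own, and no difference between lists was tested. In 45 further autophagy genes the median log2 fold change was 0.29, with 2 higher and 3 lower (11.1% called) and 64.4% above 0. In 73 further tested lysosomal genes it was 0.15, with 5 higher and 3 lower (11% called) and 56.2% above 0. Both called shares were near the 10.6% of all tested genes, of which 55.4% lay above 0. The order of the members, with the lysosomal median above the autophagosome median, was not seen in these lists. Of 33 genes of the autophagy machinery Atg13, the scaffold of the ULK1 complex, fell from 105 ± 22.4 to 45.0 ± 13.7 CPM (SD, n = 3). Its log2 fold change was -1.22 (SE 0.25, edgeR adjusted p = 0.0108). The lipid transfer protein genes went in opposite directions. Atg2a fell from 358 ± 8.26 to 185 ± 64.4 CPM (-0.95, SE 0.21), and Atg2b rose from 34.9 ± 11.4 to 69.8 ± 3.72 CPM (1, SE 0.25). Wdr45b, a relative of Wipi1, fell by 0.54 on the log2 scale. Uvrag, a partner of Beclin 1 that the rule for named genes did not take, was the other gene that rose (0.87). Of 12 selective autophagy receptor genes 0 passed edgeR or limma-voom and 1 passed DESeq2, while 3 had an unadjusted edgeR p under 0.05, a share near that of all tested genes. The most abundant of them, Tollip and Tex264, were at -0.25 (SE 0.18) and -0.15 (SE 0.20).

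Of 37 further hydrolases and luminal proteins 2 were higher and 2 lower (10.8%, against 10.6% of all tested genes). Tpp1, a tripeptidyl peptidase, rose by 1.48 on the log2 scale (SE 0.32, edgeR adjusted p = 0.0139), from 8.64 ± 1.56 to 24.2 ± 4.81 CPM. Smpd1, the acid sphingomyelinase, rose by 0.93. Npc2, which hands cholesterol to NPC1, fell from 318 ± 45.1 to 200 ± 7.84 CPM (-0.67, SE 0.15), and the acid phosphatase Acp5 fell by 0.75 on the log2 scale. Of 21 membrane and transport genes 3 rose and 0 fell (14.3%). Among them were the cystine transporter Ctns (0.84) and Npc1, the cholesterol exporter (33.8 ± 1.93 to 73.6 ± 20.9 CPM; 1.12, SE 0.24, edgeR adjusted p = 0.0112). Npc1 and Npc2, which act in the same export step, thus moved in opposite directions. Npc1 did not pass once GC and length were corrected for (0.72, edgeR adjusted p = 0.118), nor did Acp5 (-0.48, 0.0732). Of 15 further V-ATPase genes (6.67% called) Atp6v0e fell (-0.80, SE 0.20) and 0 rose. It did not pass when scaled by library size alone (-0.69, edgeR adjusted p = 0.0643).

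Of 7 genes that sort hydrolases to lysosomes 2 rose (28.6% of a short list, against 10.6% of all tested genes). Igf2r, the large mannose 6-phosphate receptor, was at 45.4, 37.3 and 44.0 CPM in untreated and 106, 111 and 83.9 CPM in BPA libraries. It stood out among the further genes, since it passed under every alternative run, with each library left out in turn included (1.25, SE 0.20, edgeR adjusted p = 0.00214, at most 0.0221). Sort1, the sorting receptor sortilin, rose from 89.6 ± 5.14 to 151 ± 16.0 CPM (0.75, SE 0.16). Of 15 genes that control TFEB or the kinase complex mTORC1, 3 rose and 1 fell (26.7%). Foxo3, a transcription factor of autophagy genes, was at 57.6, 68.0 and 47.6 against 108, 154 and 104 CPM (1.08, SE 0.21, edgeR adjusted p = 0.00854). Flcn, which with FNIP proteins acts on the Rag GTPases, rose by 0.58, and its partner Fnip1 rose by 2.14 with overlapping groups (5.70 CPM in BPA replicate 2, 21.1 in the other BPA replicates). Lamtor4, a subunit of the lysosomal Ragulator complex, fell by 1.14 on the log2 scale. Lamtor4 did not pass when scaled by library size alone or with the GC and length correction (edgeR adjusted p = 0.0569 and 0.0642). Fnip1 did not pass in limma-voom (adjusted p = 0.111), with a replicate block (0.0669) or with the GC and length correction (0.0504).

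Of the further genes described here by the rule for named genes that passed, Igf2r alone kept its call with each library left out in turn. Foxo3 and Npc1 lost it without untreated replicate 1 (edgeR adjusted p = 0.0621 and 0.0732). Tpp1 lost it without untreated replicate 1 (0.068) or BPA replicate 1 (0.0587), Atg13 without untreated replicate 1 (0.0627) or 3 (0.0587), and Sort1 without untreated replicate 1 (0.0915) or 2 (0.0567). Atg2a, Smpd1 and Flcn lost it when untreated replicate 1 or 2 or the first BPA replicate was left out, with adjusted p at most 0.0815, 0.0972 and 0.161. Atg2b and Npc2 lost it without those libraries or BPA replicate 3 (at most 0.122 and 0.117), and Atp6v0e and Lamtor4 without those or untreated replicate 3 (at most 0.128 and 0.133). Fnip1 lost it when replicate 1 or 3 of either group was left out (at most 0.174). Wdr45b, Acp5 and Ctns lost it without any 1 library except BPA replicate 2 (at most 0.139, 0.136 and 0.143). Uvrag likewise lost it without any 1 library except BPA replicate 2 (at most 0.109).

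**Figure D4:**
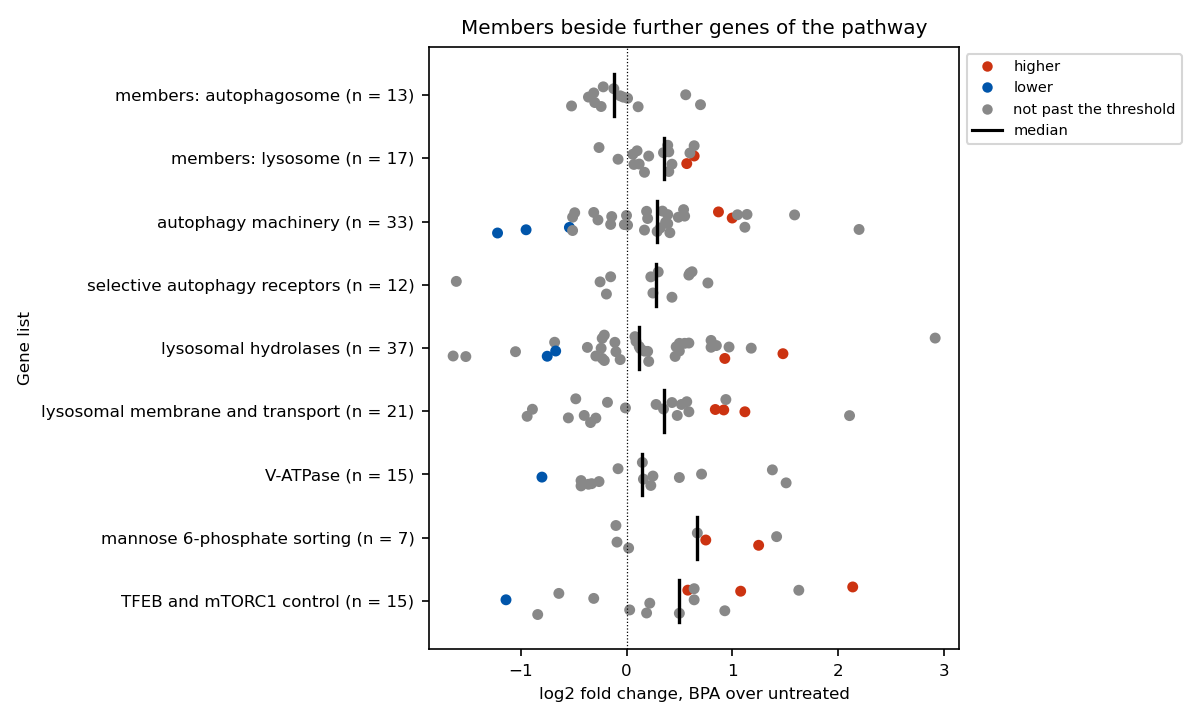
Log2 fold change, BPA over untreated, of the members and of 7 further gene lists, 1 point per tested gene (red higher, blue lower, grey not past the threshold), with the median of each list as a black bar. The medians lie between -0.12 (autophagosome members) and 0.67 (mannose 6-phosphate sorting), and most lists hold points on both sides of 0.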

How the data were processed

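Libraries came from total RNA by the TruSeq RNA v2 chemistry, per the labels' protocols. The submitters' processing notes list TopHat2 2.0.9, HTSeq and mm10. The annotation release and the counting options are not stated there. The deposited raw counts per Ensembl gene were tested as they stand. The FPKM values made by the authors equal counts over a gene length and the column total (largest relative deviation 0.00092) and served for levels between genes.

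Counts were filtered with filterByExpr, scaled by TMM and tested with edgeR 4.0.16 (R 4.3.3), BPA against untreated over 13287 genes, FDR 0.05. Intervals (95%) use the SE, the fold change over the square root of F, and cover the spread between libraries. The biological coefficient of variation was 0.438. The alternatives were DESeq2 1.42.0, limma-voom (limma 3.58.1), other scalings and filters, a replicate block, lowess offsets for GC content (longest GENCODE M21 transcript) and gene length (span 0.3), and each library left out. The scripts were tested on simulated data for 13287 genes, with 200 changed genes drawn at random from all of them. Of the simulated 2-fold changes 31% were found by edgeR, 35% by DESeq2 and 27% by limma-voom. For 4-fold changes these shares were 59%, 62% and 49%. False calls were 5 of 95 in edgeR, 41 of 138 in DESeq2 and 3 of 79 in limma-voom. A gene that did not pass may therefore still have changed, and a pass in DESeq2 alone is weaker evidence. These shares are averages over all tested genes, low-count genes included, and were not found for the members. The members had a smaller median SE (0.19 against 0.37), and their 95% intervals bound the size of a change.

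All 32 members were named. Each further list gave at most 4 called genes, taken by adjusted p, or its 2 most abundant genes if it had no call. One gene that the rule took is not reported here. The members and lists were chosen with earlier results of these data known. Itgam, present in 2 rows, was left out of the macrophage markers. Replicates of a group differed by more than sampling noise (chi-square per degree of freedom 18.9 to 84.5, over 60 for both pairs with BPA replicate 2). Figures used matplotlib 3.10.9 in Python 3.11.15.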

Additional observations from a re-analysis of the deposited data

How the results depend on the processing

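All genes called numbered 1415 with all libraries and 2138 when corrected for GC and length, of 13287 tested in both. In DESeq2 they numbered 2200, but of 18830 tested. Among the 13287 genes DESeq2 called 947 higher and 1198 lower. With 1 library left out all genes called numbered 444 (without untreated replicate 1) to 2807 (without BPA replicate 2). Over all tested genes the median moved from 0.10 to 0.21 (log2) with library size scaling, which gave 5 members higher, all 5 of them lysosomal. The GC and length correction gave 4 members lower, 3 of them autophagosome members. With 1 library left out, members higher numbered 0 to 6 and lower 0 to 4, lysosomal members higher 0 to 6, lysosomal members lower 0, autophagosome members higher 0 and autophagosome members lower 0 to 3. No member past the threshold changed sign, but 14 members that did not pass changed sign, in 28 comparisons in all. With library size scaling these were Ulk1 (0.01), Atg16l1 (0.07), Tfe3 (0.07) and Hexa (0.02). With DESeq2 size factors in edgeR and in DESeq2 it was Atg7 (-0.01 in both). After the GC and length correction they were Atg7 (-0.10), Lamp2 (-0.14), Gpnmb (-0.12), Atp6v1h (-0.02), Ctsz (0.03) and Hexa (0.12). With 1 library left out the ranges that crossed 0 were -0.04 to 0.19 (Sqstm1), -0.37 to 0.01 (Gabarapl1), -0.42 to 0.11 (Ulk1), -0.08 to 0.09 (Atg7), -0.12 to 0.04 (Atg16l1), -0.15 to 0.09 (Tfe3), -0.09 to 0.25 (Gpnmb), -0.08 to 0.18 (Atp6v0d1), -0.08 to 0.38 (Gaa), -0.19 to 0.01 (Hexa) and -0.04 to 0.25 (Neu1). The cause of these changes was not tested.

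Replicate numbers are shared between the groups. Deviations of same-numbered libraries had correlations of -0.02, 0.06 and 0.07, and not every library correlated best with its own number. Over all pairs of an untreated and a BPA library the values ran from -0.08 to 0.07. With 3 libraries per group, values this near 0 cannot show whether the numbers pair the libraries. A replicate block gave 1706 calls over all genes, with 2 members higher, 1 lower, 0 autophagosome members in either direction, 2 lysosomal members higher and 0 lower. The lysosomal median of 0.35 was 0.18 in limma-voom and 0.22 with the block. Detection by depth was not tested.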
